A study of Danio rerio with 33 samples.

Results

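Female gut was compared with male gut of adult zebrafish, using the 3 small RNA libraries of each. The members are the known mature miRNAs of the deposited count table with a read in a gut library, 233 of the 238 with a read in any of the 32 libraries analysed. The 6 gut libraries are those whose column names carry gut and the sex. Both groups were wild type fishes of the Singapore strain, obtained from a local supplier. Each replicate was RNA pooled from the guts of several fishes, so the spread between replicates is a spread between pools and not between single animals. The other 9 groups were female and male liver, female and male brain, ovary, testis, embryo, eye and heart. By the paper, eye and heart were taken from males only. The embryo group was a pool of early embryonic stages and juveniles. Whole gut was homogenised, and in such bulk tissue fewer cells of a type and less RNA per cell cannot be told apart. The names of the miRNAs are given without the zebrafish prefix dre-.

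MiRNAs are short RNAs that are cut from hairpin precursors, loaded into Argonaute and led to messenger RNAs by the seed near their 5′ end, where they lower translation and shorten the life of the message. Several hairpins are often carried by the same primary transcript, and members of a family share a seed. In the gut, miR-192 and miR-194 mark the absorptive epithelium, the miR-200 family marks epithelia in general, and miR-143 and miR-145 mark the smooth muscle of the wall.

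Total counts on known miRNAs were 4670838, 3088848 and 2662337 in female gut replicates 1 to 3 and 4407777, 2422481 and 1065249 in male gut replicates 1 to 3. Male gut replicate 3 was therefore the shallowest library. A count of at least 1 was found for 232, 229 and 228 miRNAs in the female libraries and 227, 225 and 216 in the male libraries, and the difference of 7 in the mean gave an exact two-sided permutation p of 0.1, the smallest that 3 against 3 libraries allow. Pearson correlations of log2(normalized value + 1) were 0.993 to 0.997 between libraries of the same sex and 0.976 to 0.984 between libraries of different sex. Of the sum of squares of the 6 gut libraries on this scale, 73.7% lay between the sexes. Values below are the deposited TMM (Trimmed Mean of M-values) normalized counts, in which each library was scaled by a single factor, and they do not take account of miRNA length, which is nearly the same for all miRNAs.

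The label gut was checked against the miRNAs of the intestinal epithelium. The summed level of miR-192, miR-194a, miR-194b and both arms of miR-459, a gut miRNA of fishes, was 260903 to 317423 in female gut and 300167 to 373807 in male gut, which was 23.7 to 25.9% of all normalized counts in female gut and 25.6 to 28.4% in male gut. These miRNAs were thus abundant in all 6 libraries. They were also abundant in liver, although all were higher in gut than in liver of the same sex. MiR-194a averaged 101871 in female and 89735 in male liver, against 169200 and 203000 in female and male gut. MiR-192 averaged 28041 and 23819 in liver, against 52032 and 55263 in gut. Abundance alone therefore does not tell gut from liver. None of the 5 passed either test described below, and their log2 fold changes of female over male lay between -0.39 and -0.09, with 2 of them positive with library size alone. In the fit of the 6 gut libraries alone, whose spread is estimated from gut only, miR-194a, miR-459-5p and miR-459-3p passed the test of no change with the lower level in female gut (adjusted p of 0.005, 0.0047 and 0.0361). In that fit 60 of the 233 miRNAs tested passed with the lower level in female gut.

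The comparison asks which known miRNAs are sex associated in the gut. A miRNA was called where its change was tested to exceed 2-fold (a log2 fold change of 1, edgeR glmTreat) with an adjusted p of at most 0.05 over the 238 miRNAs. By this test 6 miRNAs were called higher in female gut, which is 2.52% of those tested, and 1 was called higher in male gut, which is 0.42%, so that 2.94% were called in all. Those higher in female gut were miR-430a, miR-430b, miR-34c, miR-122, miR-148 and miR-152, and the miRNA higher in male gut was miR-2190. A second test, of any change at all (edgeR quasi-likelihood F-test), was passed by 34 miRNAs with the higher level in female gut (14.3%) and by 37 with the higher level in male gut (15.5%). Female gut held 47.9% of these calls, which became 34.8% with the size factors of DESeq2 and 64.6% with library size alone, so small changes depend on the scaling. With the size factors of DESeq2, 32 miRNAs passed with the higher level in female gut and 60 with the higher level in male gut. With library size alone these numbers were 51 and 28. In the fit of the 6 gut libraries alone, 60 of 233 passed with the higher level in male gut. Passes under these settings are to be read beside these numbers. The 3 female libraries were all above the 3 male libraries for 49 of the 233 miRNAs (21%), and all below them for 57 (24.5%).

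**Figure D1:**
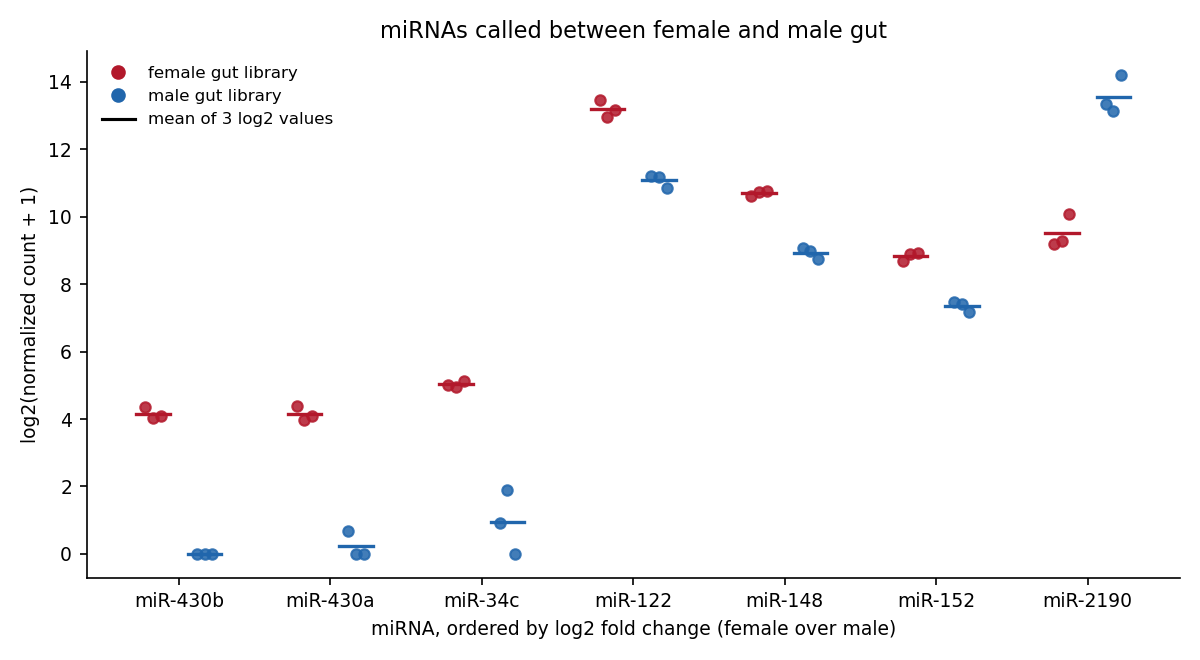
Each point is a gut library, female gut on the left and male gut on the right of each of the 7 called miRNAs, on a scale of log2(normalized count + 1), and bars are the means of the 3 log2 values. Female and male libraries do not overlap for any of the 7, and miR-430b was at 0 in the 3 male libraries.

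Of the 6 miRNAs higher in female gut, miR-430a and miR-430b belong to a family that in zebrafish is made in bulk from the activated embryonic genome and clears maternal messenger RNA. MiR-430b had 82, 39 and 39 counts in the female libraries and 0 counts in each male library, which are normalized values of 19.3, 15.5 and 16.1 against 0. Taking a floor of 3 counts in each male library, miR-430b was at least 8.75-fold higher in female gut (edgeR glmTreat adjusted p = 0.000209). MiR-430a had 84, 37 and 39 counts in the female libraries and 2, 0 and 0 counts in the male libraries. All 3 female libraries were far above all male ones, and the ratio of pooled counts, scaled for depth, was 53.3 with an exact 95% counting interval of 14.5 to 444 (adjusted p = 0.000242). As the libraries carried no molecular identifiers, reads need not be separate molecules, and such intervals and floors cover counting error only. MiR-430c had 12, 5 and 8 counts in female gut and 0 in each male library, which was not called (adjusted p = 0.571) but became a call with the likelihood ratio test, the 6 gut libraries alone and the 18 brain, gut and liver libraries. MiR-430i had no count in any gut library. These miRNAs have nearly the same sequence, so reads of a member could be counted on another, and the levels of single members are uncertain.

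MiR-34c and miR-34b, which are cut from the same primary transcript and are known in mammals from ciliated cells and male germ cells, were both higher in female gut. MiR-34c had normalized values of 31.0, 29.8 and 34.3 in female gut and 0.895, 2.68 and 0 in male gut, with 3, 5 and 0 counts behind the male values. The 3 female libraries were close to each other and all above the male ones, with a log2 fold change of 4.54 (SE 0.98, adjusted p = 0.0128). This call was lost without male gut replicate 1 (adjusted p = 0.117). MiR-34b had 32.7, 33.7 and 49.5 in female gut and 4.77, 17.2 and 0 in male gut, a log2 fold change of 2.27 (SE 0.82) that passed the test of no change (adjusted p = 0.0366) and not the 2-fold test (adjusted p = 0.456). MiR-34b passed the test of no change in only 2 of the 6 fits that left out a library, with an adjusted p of up to 0.141, without male gut replicate 1. MiR-34a, which is made from a separate gene and responds to p53 in mammals and fishes, had 83.7 to 128 in female gut and 83.1 to 93.4 in male gut, and the groups overlapped. It passed the test of no change with library size alone (adjusted p = 0.0315) and not with TMM (adjusted p = 0.205).

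MiR-122, in mammals the most abundant miRNA of hepatocytes and a regulator of lipid metabolism there, had normalized values of 11329, 7977 and 9118 in female gut and 2355, 2340 and 1855 in male gut. The lowest female library was more than 3 times the highest male library, and the log2 fold change was 2.12 (SE 0.33, adjusted p = 0.00698). The DESeq2 test did not call it (adjusted p = 0.178). MiR-148 had 1564, 1699 and 1732 in female gut and 539, 502 and 431 in male gut, with a log2 fold change of 1.76 (SE 0.15, adjusted p = 0.000209). MiR-152 had 409, 476 and 488 in female gut and 177, 171 and 142 in male gut, with a log2 fold change of 1.48 (SE 0.15, adjusted p = 0.0131). MiR-148 and miR-152 belong to the same seed family, which in mammals acts on the DNA methyltransferase DNMT1, and for both the spread within a sex was small beside the gap between the sexes. The call of miR-152 was lost without female gut replicate 2 (adjusted p = 0.0505) and with the size factors of DESeq2 (adjusted p = 0.0590), while its log2 fold change was at least 1.37 under every alternative run.

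MiR-2190, a miRNA described in fishes whose function is not established, was the only miRNA called higher in male gut. Its normalized values were 582, 622 and 1076 in female gut and 10303, 8944 and 18998 in male gut. Replicate 3 was the highest library of both sexes, and the lowest male library was still more than 8 times the highest female one. The log2 fold change of -4.07 (SE 0.61, adjusted p = 0.000216) corresponds to means of 760 ± 275 in female gut and 12749 ± 5455 in male gut (SD, n = 3 each). It was called under all 14 alternatives that refit the model. MiR-738 and miR-735, both also known from fishes, were the next in this direction and were not called. MiR-738 had 42.6, 61.9 and 114 in female gut and 340, 306 and 321 in male gut, with a log2 fold change of -2.16 (SE 0.50, adjusted p = 0.0886). It became a call without female gut replicate 3 (adjusted p = 0.0207) and in the fit of the 6 gut libraries alone (adjusted p = 0.0259). MiR-735 had 11.1, 7.54 and 12.4 in female gut and 34.3, 23.6 and 161 in male gut, so its mean rests on male gut replicate 3. Its log2 fold change was -2.70 (SE 0.76) with all libraries and -1.36 without that library, where the test of no change gave an adjusted p of 0.185. The 3 miRNAs had been listed because they were known to be higher in males in brain, gut or liver of these same samples, so their common direction is not independent evidence. In the gonads miR-2190 and miR-738 were higher in ovary (means of 5418 and 76.9) than in testis (243 and 14.7). MiR-735 averaged 21.6 in ovary and 140 in testis.

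**Figure D2:**
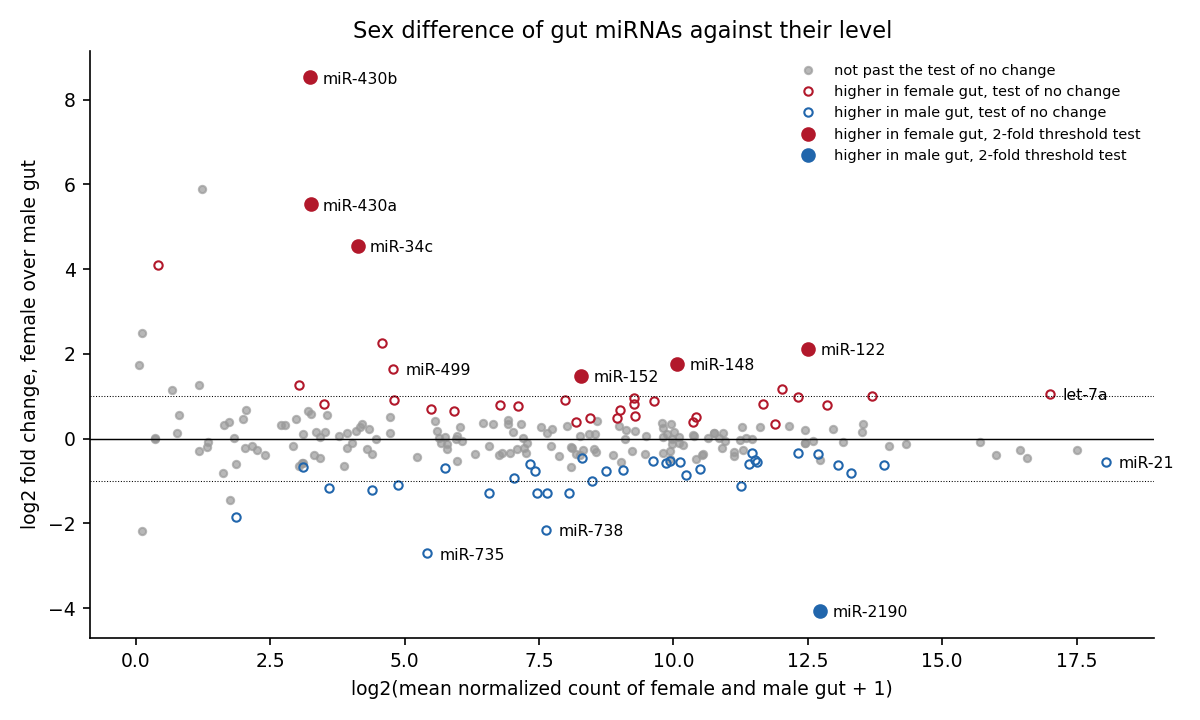
Each point is a miRNA with a read in gut, with log2(mean normalized count of the 6 libraries + 1) on the horizontal axis and the fitted log2 fold change of female over male gut on the vertical axis, dotted lines at a 2-fold change. Filled points are the 7 calls of the 2-fold test, open points the other miRNAs past the test of no change, and fitted values such as the 8.52 of miR-430b rest on male libraries at 0 and are no measured size.

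Levels of the 7 called miRNAs over all 11 groups are given as a description. MiR-430a averaged 16.8 in female gut and 0.199 in male gut, against 35.8 in female liver, 0.657 in male liver, 2636 in ovary, 5.80 in testis and 80086 in embryo. Female gut thus stood below ovary and embryo by orders of magnitude, and above male gut, male liver and testis. The excess of female over male gut was 0.632% of the ovary level for miR-430a, 0.628% for miR-430b and 0.635% for miR-430c. For miR-34b and miR-34c, which averaged 595 and 566 in ovary, it was 5.26% and 5.39%. MiR-34c averaged 106 in female brain and 67.2 in male brain, both above female gut at 31.7. In liver it averaged 15.5 ± 8.39 in females and 1.23 ± 0.285 in males (SD). The gonad miRNA miR-202-5p, at 45738 in ovary and 51578 in testis, had 530, 458 and 310 in female gut and 342, 234 and 406 in male gut, which overlapped (log2 fold change 0.41, SE 0.29, test of no change adjusted p = 0.334). The excess of female over male gut was 0.23% of the ovary level for miR-202-5p. Its whole level, and not the excess, was 0.946% of the ovary level in female gut and 0.635% of the testis level in male gut. MiR-202-3p had 3.00 in female gut and 3.22 in male gut. MiR-202-5p, at means of 433 in female gut and 327 in male gut, was thus far below its gonad levels but above miR-430a and miR-34c in gut. In female gut miR-202-3p was below both. The part of gonad RNA in the levels of miR-430 and miR-34 was not tested.

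MiR-122 averaged 105502 in female liver and 40564 in male liver, so female gut held 8.98% of the female liver level and male gut 5.38% of the male liver level. The excess of female over male gut was 6.91% of the female liver level for miR-122 and 24.2% for both miR-148 and miR-152. MiR-148 was highest in female liver at 4846, followed by female gut at 1665, male liver at 948 and male gut at 491, and miR-152 was highest in female liver at 1216, followed by female gut at 458 ± 42.7 and male liver at 418 ± 23.2, whose spreads overlap. No other hepatocyte marker was among the lists, and the part of liver RNA in the gut values was not tested. MiR-2190 was highest in embryo at 115518 and in male brain at 58910, and male gut followed at 12749 ± 5455, a spread that overlaps that of eye at 10663 ± 7057 and male liver at 8231 ± 2721. Female gut, at 760, was next to last of the 11 groups, above testis at 243 ± 231 and close to female liver at 1051 ± 586.

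Over the 11 group means, the profile most like that of miR-148 on the scale of log2(normalized value + 1) was that of miR-152 (Pearson r = 0.970). The profile nearest to miR-430a was that of miR-430b (r = 0.998), that nearest to miR-34c was miR-34b (r = 0.961), that nearest to miR-2190 was miR-738 (r = 0.904), and that nearest to miR-122 was miR-194a (r = 0.945). The groups share scaling, and the likeness is a description over 11 points.

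**Figure D3:**
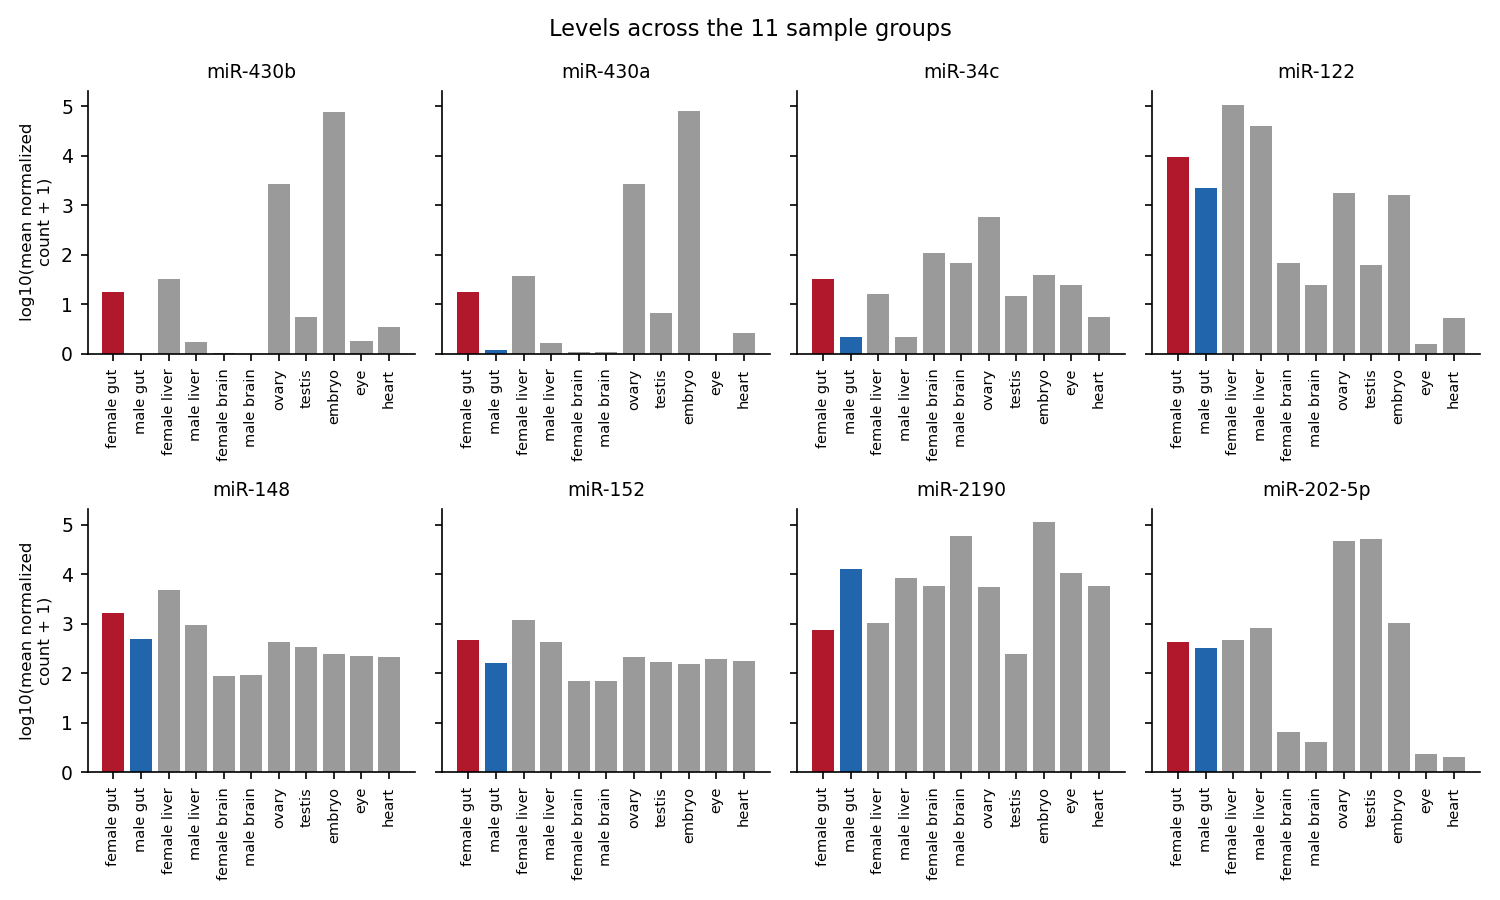
Bars give log10(mean normalized count + 1) in the 11 sample groups for the 7 called miRNAs and for miR-202-5p, with female gut in red, male gut in blue and the other groups in grey (n = 3 libraries, 2 for heart). The bars of miR-430a and miR-430b are tallest in embryo and ovary, those of miR-122, miR-148 and miR-152 in female liver, and female and male gut stand at nearly the same height for miR-202-5p.

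The let-7 family, first known for the timing of larval stages in Caenorhabditis elegans and later as a brake on growth genes in vertebrates, was on balance higher in female gut, by about 2-fold or less. Of its 10 members 7 passed the test of no change with the higher level in female gut, 0 passed with the higher level in male gut and 0 were called by the 2-fold test, against 14.3%, 15.5% and 2.94% of all miRNAs tested. The median log2 fold change of the family was 0.80, and that of all miRNAs tested was -0.0068. Let-7a alone had 166002, 194753 and 171809 in female gut and 82489, 88439 and 84367 in male gut, with a log2 fold change of 1.06 (SE 0.13, test of no change adjusted p = 5.04e-07). It took 15.5 ± 0.39% of all counts in female gut, where it was the second most abundant miRNA, and 6.75 ± 0.46% in male gut, where it was the fifth (SD, n = 3 each). Let-7f had 6049, 5891 and 5207 in female gut and 2388, 2725 and 2534 in male gut, with a log2 fold change of 1.17 (SE 0.13). This was called by the 2-fold test with library size alone (adjusted p = 0.0149) and not otherwise. Let-7b, let-7g, let-7h, let-7e and let-7j had log2 fold changes of 1.00, 0.99, 0.82, 0.79 and 0.51. Let-7d, at 0.28, did not pass, although it did with library size alone (adjusted p = 0.000168) and in the fit of the gut libraries alone (adjusted p = 0.00745), and let-7c and let-7i, at -0.09 and 0.04, had libraries that overlapped between the sexes. Without each library in turn, 7 or 8 members passed. Members differ by few bases, and the counts of single members are uncertain in the same way as those of miR-430.

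The miR-17 to miR-92 clusters, which carry growth-promoting miRNAs, held 20 miRNAs on the list, of which 8 passed the test of no change with the higher level in female gut and 1 with the higher level in male gut, beside 14.3% and 15.5% of all miRNAs tested. The passing members were miR-17a-5p, miR-18a, miR-19a-3p, miR-19b-3p and miR-20a-5p, and the paralogous miR-19c, miR-20b and miR-363. MiR-17a-5p had 634, 640 and 610 in female gut and 400.5, 398 and 384 in male gut, a log2 fold change of 0.67 (SE 0.11) with replicates of each sex within a narrow range. MiR-19b-3p had 359, 347 and 279 in female gut and 212, 173 and 136 in male gut, a log2 fold change of 0.91 (SE 0.24). MiR-92a, which has hairpins within 10000 bases of those of miR-17a, miR-18a, miR-19a, miR-19b and miR-20a in the RefSeq annotation of GRCz12tu, had 74788, 84346 and 82760 in female gut and 95512, 100905 and 96862 in male gut. All female libraries were below all male ones, but its log2 fold change of -0.28 (SE 0.14) did not pass the test (adjusted p = 0.157), although it passed with the size factors of DESeq2 (adjusted p = 0.0243) and in the fit of the gut libraries alone (adjusted p = 0.0213). MiR-25, of the related cluster with miR-93, was higher in male gut, with 6320, 7038 and 6796 in female gut against 10883, 10384 and 9757 in male gut (log2 fold change -0.62, SE 0.14, adjusted p = 0.00162). The number passing in female gut was 6 to 8 without each library in turn, 7 with the size factors of DESeq2, where 2 passed with the higher level in male gut, and 10 with library size alone. Of all 238 miRNAs tested, 32 passed with the higher level in female gut with the size factors of DESeq2, and 51 with library size alone.

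Of the 9 miRNAs of the miR-15 and miR-16 family, which in mammals slows the cell cycle, miR-16b and miR-15a-5p passed the test of no change with the higher level in female gut, as did 14.3% of all miRNAs tested. MiR-16b had 839, 838 and 756 in female gut and 401, 449 and 396 in male gut, a log2 fold change of 0.97 (SE 0.15, adjusted p = 1.11e-05). MiR-15a-5p, which has neighbouring hairpins of both miR-16b and miR-16c, had a log2 fold change of 0.54 (SE 0.13), and the opposite arm miR-15a-3p had -0.11 and did not pass. MiR-15b and miR-16c had log2 fold changes of 0.10 and 0.11 and overlapped between the sexes. With library size alone 5 of the 9 passed, beside 51 of all 238 miRNAs tested that passed with the higher level in female gut.

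Markers of other cell types were read as lists, and their part in the called miRNAs was not tested. Of the 3 miRNAs of the fibroblast and mesenchyme list, miR-199-5p and miR-214 passed the test of no change with the higher level in female gut. The share of all miRNAs tested was 14.3%. In vertebrates miR-199 and miR-214 share a transcript expressed in connective tissue. MiR-199-5p had 1013, 1181 and 929 in female gut and 616, 562 and 498 in male gut (log2 fold change 0.89, SE 0.17, adjusted p = 0.000148). MiR-214 had 682, 915 and 743 in female gut and 411, 453 and 471 in male gut (log2 fold change 0.81, SE 0.15, adjusted p = 0.000114). The opposite arm, miR-199-3p, had 963 to 1210 in female gut and 1158 to 1271 in male gut, so the arms of this hairpin did not move together. Of 17 hairpins with both arms at a mean of at least 10 in gut, 13 had log2 fold changes of the same sign for both arms.

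The erythroid miRNAs miR-451, which is cut by Argonaute and not by Dicer, and miR-144, its neighbour, both had the lower level in female gut. Both passed the test of no change, beside 15.5% of all miRNAs tested. MiR-451 had 7725, 8229 and 6016 in female gut and 13840, 16148 and 8497 in male gut (log2 fold change -0.81, SE 0.23, adjusted p = 0.00923). MiR-144 had 172, 177 and 118 in female gut and 366, 515 and 245 in male gut (log2 fold change -1.27, SE 0.24, adjusted p = 0.000158). Their sum was 6134 to 8407 in female gut and 8742 to 16663 in male gut, with male gut replicate 2 the highest library, and without it miR-451 no longer passed (adjusted p = 0.0721). Of 8 leukocyte miRNAs, miR-142a-5p and miR-155, both known from cells of the immune system, passed with the lower level in female gut, beside 15.5% of all miRNAs tested. A negative log2 fold change was found for 7 of the 8, while 112 of all 238 miRNAs tested had a positive one. Both arms of miR-142a are among the 8, so they are not all separate genes. The sum of the leukocyte list was 5207 to 6196 in female gut and 6570 to 7661 in male gut. Without single libraries 1 or 2 leukocyte miRNAs passed, and miR-155 did not pass in any of these fits, while 5 passed with the size factors of DESeq2. In the fit of the gut libraries alone miR-155 passed (adjusted p = 0.00542), as did miR-142a-3p, miR-142a-5p, miR-142b-5p and miR-150. All of these had the lower level in female gut, and miR-223, miR-146a and miR-146b did not pass there. Both with the size factors of DESeq2 and in the fit of the gut libraries alone, 60 of all miRNAs tested passed with the lower level in female gut.

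The skin epithelium list holds miR-205, miR-203a and both arms of miR-203b, which in vertebrates mark stratified epithelia. All 4 passed the test of no change with the lower level in female gut, beside 15.5% of all miRNAs tested. MiR-205 had 132, 80.2 and 97.0 in female gut and 360, 187 and 203 in male gut (log2 fold change -1.28, SE 0.34, adjusted p = 0.00442). The 4 miRNAs summed to 166 to 294 in female gut and 372 to 660 in male gut. For miR-203a the groups overlapped. Male gut replicate 1 had the highest sum, and without it 0 of the 4 passed, with an adjusted p of 0.0926 for miR-205. Only 2 of the 4 passed without female gut replicate 2, female gut replicate 3 or male gut replicate 3, and with library size alone. In contrast, the 6 miRNAs of the miR-200 family, which mark all epithelia, had log2 fold changes of 0.02 to 0.37 and none passed, while 4 of them were negative with the size factors of DESeq2.

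Of 16 miRNAs of neurons and glia, miR-129-5p, miR-137, miR-138 and miR-9-5p passed with the lower level in female gut and 0 passed in the other direction, beside 15.5% and 14.3% of all miRNAs tested. MiR-129-5p had 208, 268 and 239 in female gut and 494, 498 and 436 in male gut (log2 fold change -1.001, SE 0.17, adjusted p = 5.7e-05). MiR-138 had 981, 1272 and 1041 in female gut and 1882, 1842 and 1635 in male gut (log2 fold change -0.70, SE 0.18). A positive log2 fold change was found for 6 of the 16, while 112 of all 238 miRNAs tested had a positive one. The sums of this list did not overlap, at 2921 to 3564 in female gut and 4372 to 4963 in male gut, although miR-124, the most neuron specific of them, was at 2.89 to 10.7 in female gut and 4.41 to 13.9 in male gut. These sums rest on the abundant members, with miR-138 alone at a mean of 1098 in female gut and 1787 in male gut. Without single libraries 3 or 4 of the list passed with the lower level in female gut, and miR-137 passed in 2 of these 6 fits. Without male gut replicate 1, and also without male gut replicate 3, 1 of the list passed with the higher level in female gut. With library size alone 2 of the list passed with the higher level in female gut, beside 51 of all 238 miRNAs tested. Neither the smooth muscle pair miR-143 and miR-145 (log2 fold changes -0.13 and -0.17) nor the 10 Hox cluster miRNAs of the miR-10 and miR-196 families passed the test, although miR-10c passed with the size factors of DESeq2, and miR-10a-5p, miR-10b, miR-10c and miR-196b passed in the fit of the gut libraries alone. Of these miR-10b had the higher level in female gut and the others the lower. In that fit 60 of all 233 miRNAs tested passed with the lower level in female gut.

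Of the 4 miRNAs of the pancreas list, miR-216b passed the test of no change with the lower level in female gut, beside 15.5% of all miRNAs tested. MiR-216b had 2368, 2650 and 2318 in female gut against 3564, 3840 and 3320 in male gut (log2 fold change -0.55, SE 0.16, adjusted p = 0.0126, and 0.0674 without male gut replicate 2). Its neighbours miR-216a and miR-217, both known from the exocrine pancreas, had log2 fold changes of 0.31 and 0.05, and miR-375, the islet miRNA, had -0.48, none of which passed, although miR-216a and miR-375 did in the fit of the gut libraries alone (adjusted p of 0.0163 and 0.00149). Of the 8 miRNAs of the striated muscle list, 1 passed the test of no change, with the higher level in female gut, beside 14.3% of all miRNAs tested. This was miR-499, which lies in an intron of a slow myosin gene. It had 74.6, 24.6 and 21.1 in female gut and 15.2, 10.2 and 13.2 in male gut. The log2 fold change of 1.65 (SE 0.40, test of no change adjusted p = 0.00229) became 0.80 without female gut replicate 1 and then did not pass (adjusted p = 0.0928). MiR-1 and miR-133a-3p, the main miRNAs of muscle, had log2 fold changes of -0.37 and -0.54 and did not pass, although miR-133a-3p did in the fit of the gut libraries alone (adjusted p = 0.0316). Of the 4 endothelial miRNAs, miR-126a-3p passed with a log2 fold change of 0.34 (SE 0.11), beside 14.3% of all miRNAs tested. It did not pass without female gut replicate 2 (adjusted p = 0.133). MiR-126b-3p went the other way, with a log2 fold change of -0.30 that did not pass the test of no change (adjusted p = 0.0586). It did pass with the size factors of DESeq2 (adjusted p = 0.000329) and in the fit of the gut libraries alone (adjusted p = 0.00657). Both miR-126a-5p and miR-126b-5p had log2 fold changes of 0.13 and nearly the same values in every library, so they may share reads.

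**Figure D4:**
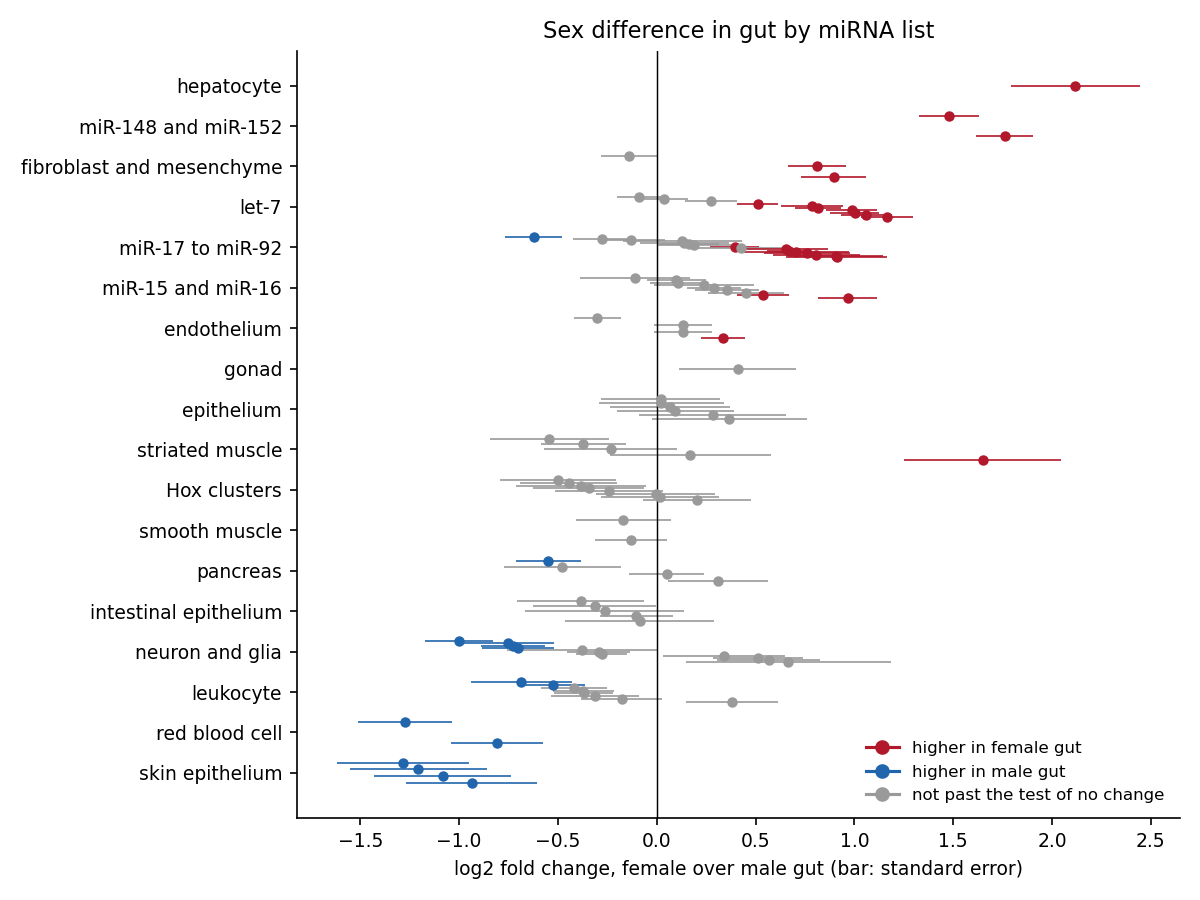
Each point is a miRNA of a list whose mean in either sex of gut reached 10 normalized counts, with its log2 fold change of female over male gut and the standard error, in red or blue where it passed the test of no change. The lists drawn are ordered by the median over their members, from hepatocyte at 2.12 to skin epithelium at -1.14. Intestinal epithelium, at -0.26, has no coloured point. Not drawn are the lists early embryo (median 5.71), miR-34 (2.27), photoreceptor and sensory (0.36), and miRNAs listed as higher in males (-2.70).

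Among single miRNAs outside these lists, miR-460-3p, miR-2188-3p and miR-1388-3p, for which no role is given here, had the lower level in female gut. MiR-460-3p had 51.7, 52.0 and 60.3 in female gut and 136, 134 and 131 in male gut, and the groups were far apart beside their spread (log2 fold change -1.29, SE 0.19, test of no change adjusted p = 8.46e-06). MiR-2188-3p had 129, 124 and 96.2 in female gut and 269, 384 and 196 in male gut (log2 fold change -1.29, SE 0.25). MiR-1388-3p had 1502, 1661 and 1512 in female gut and 3741, 3159 and 3154 in male gut (log2 fold change -1.11, SE 0.16). None of the 3 was called by the 2-fold test. MiR-135c, at 9.64, 14.7 and 6.60 in female gut and 3.88, 5.36 and 3.31 in male gut, was higher in female gut at low levels (log2 fold change 1.26, SE 0.29, adjusted p = 0.0017). MiR-727-3p had 8.47, 8.73 and 3.30 in female gut and 12.2, 24.7 and 8.82 in male gut, and without male gut replicate 2 its adjusted p of no change was 0.439. MiR-135a had 5, 2 and 0 counts in female gut and 0 in male gut, near the floor of 3 counts.

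The most abundant miRNA of both sexes was miR-21, which is induced in many tissues by growth and inflammation. It had 202984, 220692 and 233900 in female gut and 321538, 329762 and 314935 in male gut, and all female libraries were below all male ones (log2 fold change -0.56, SE 0.14, adjusted p = 0.00424). It took 19.3 ± 1.78% of counts in female gut and 25.5 ± 1.19% in male gut (SD, n = 3 each). MiR-194a, miR-10c and miR-92a, which with let-7a complete the most abundant 5 of both sexes, took 14.8%, 7.29% and 7.07% in female gut and 16.1%, 8.95% and 7.76% in male gut, and none of these passed the test of no change. In the fit of the 6 gut libraries alone all 3 passed with the lower level in female gut (adjusted p of 0.005, 0.00122 and 0.0213), and miR-10c and miR-92a passed with the size factors of DESeq2 (adjusted p of 0.037 and 0.0243). Under each of these settings 60 of all miRNAs tested passed with the lower level in female gut.

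Whether the sex difference of gut was shared with other tissues was tested by subtracting the log2 fold change in liver or in brain from that in gut, contrasts that share no library. The 2-fold test called 36 miRNAs in liver (15.1%) and 9 in brain (3.78%). The difference from liver passed for 63 of the 238 miRNAs (26.5%) and that from brain for 24 (10.1%). MiR-2190 was lower in females in gut (log2 fold change -4.07), liver (-2.97, SE 0.58) and brain (-3.32, SE 0.59), and the difference of gut from liver was -1.10 (SE 0.77, adjusted p = 0.311) and from brain -0.75 (SE 0.76, adjusted p = 0.591), neither past the test. MiR-148 was higher in females in gut (1.76) and in liver (2.35, SE 0.15) but not in brain (-0.08, SE 0.15), and gut differed from brain by 1.84 (SE 0.21, adjusted p = 6.59e-07). MiR-152 had log2 fold changes of 1.48 in gut, 1.54 in liver and -0.03 in brain. Its difference of gut from brain was 1.50 (SE 0.22, adjusted p = 2.37e-05) and that of gut from liver was -0.06 (SE 0.21), not past the test (adjusted p = 0.893), but 0.82 and past it with library size alone (adjusted p = 0.000422). MiR-122 had 2.12 in gut, 1.38 (SE 0.32) in liver and 1.64 (SE 0.38) in brain, with no difference past the test, although that from liver was 1.65 and passed with library size alone (adjusted p = 0.00358). Its brain value rests on low levels, 68.2 ± 36.0 in female and 23.8 ± 12.0 in male brain (SD), against 105502 and 40564 in liver.

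Let-7a and let-7f, at 1.06 and 1.17 in gut, had 1.84 and 1.93 in liver, and the differences of gut from liver were -0.77 (SE 0.18, adjusted p = 0.00348) and -0.77 (SE 0.19, adjusted p = 0.00454), but 0.11 and 0.12 with library size alone. MiR-148 likewise differed between gut and liver by -0.59 (SE 0.20, adjusted p = 0.033), and by 0.30 with library size alone. MiR-16b differed by -2.13 (SE 0.21, adjusted p = 1.46e-08), a negative value also with library size alone, at -1.25. MiR-499 was higher in female gut and lower in female brain (-2.60, SE 0.46), a difference of 4.25 (SE 0.61, adjusted p = 2.13e-05), with its gut value dependent on female gut replicate 1 as given above. MiR-21 was lower in female gut, with 0.26 in liver and 0.26 in brain. It differed from liver by -0.82 (SE 0.20, adjusted p = 0.00516), although by 0.07 with library size alone, and from brain by -0.81 (SE 0.20, adjusted p = 0.00943).

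**Figure D5:**
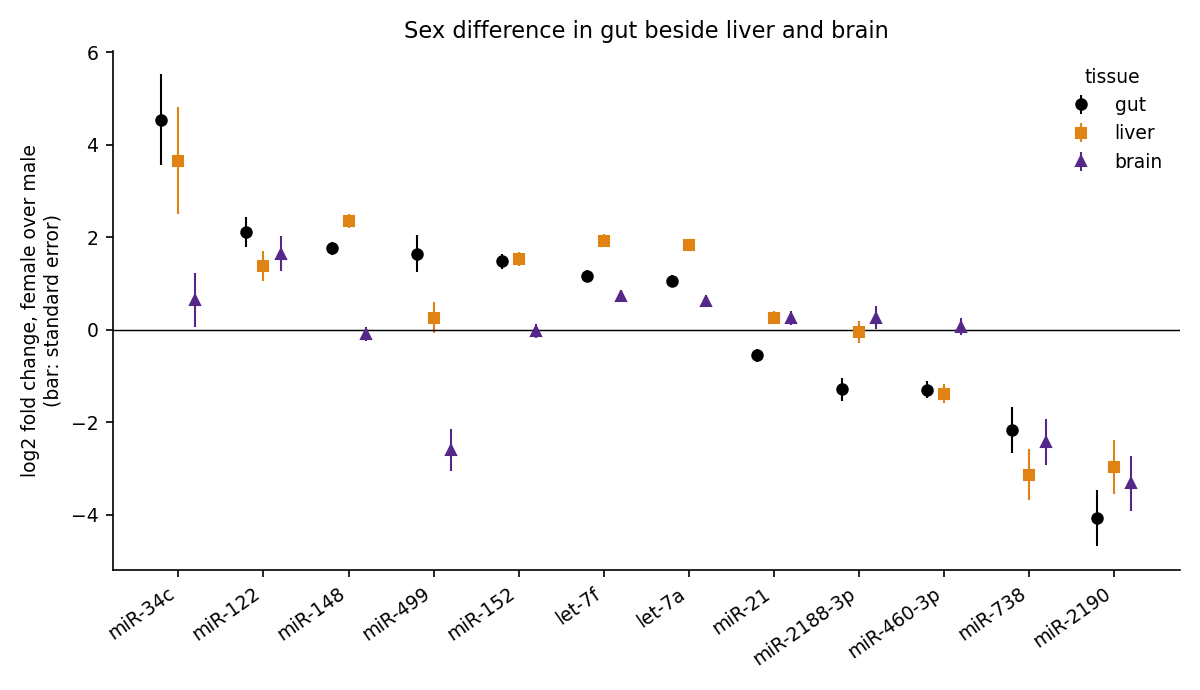
Points give the log2 fold change of female over male in gut, liver and brain with standard errors for 5 of the called miRNAs and 7 other named miRNAs, ordered by the value in gut. MiR-2190 and miR-738 lie below 0 in all 3 tissues, miR-148 and miR-152 lie near 0 in brain only, and miR-499 lies above 0 in gut and below 0 in brain.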

How the data were processed

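Small RNA libraries were sequenced on an Illumina instrument. The authors trimmed adapters with cutadapt, matched reads to mature miRNAs of miRBase release 19 in the miRDeep2 quantifier, and deposited the raw counts. They also deposited TMM normalized values, a normalized signal in which each library is its counts times a single factor. Columns were matched to samples by name.

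The counts were fitted here with edgeR 4.0.16 in R 4.3.3, with TMM factors and a coefficient for each of 11 groups over 32 libraries. Female over male gut was tested with glmTreat at a log2 fold change of 1 and with the quasi-likelihood F-test of no change, with Benjamini-Hochberg adjustment over 238 miRNAs. Standard errors come from the F statistic. The steps were tested on simulated data. The main fit did not pair libraries by replicate number. Named miRNAs are all calls, the 10 largest changes in each direction past the test of no change at a mean of at least 10, the next 5 by p, the 5 most abundant of each sex, and list members. Members, lists and rules were chosen with earlier results of these data known. Alternatives were DESeq2 1.42.0 (size factors or test), library size alone, the likelihood ratio test, filterByExpr, other sets of libraries, a replicate block, other thresholds, and leaving out each gut library. Neighbouring hairpins were taken from RefSeq of assembly GRCz12tu, in which 244 miRNAs of the table matched and 3 did not. The sequencing batch is not given in the sources used here, and p-values measure the spread between pools.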

Additional observations from a re-analysis of the deposited data

Results flagged for a closer look

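The sex difference in gut differed from that in another tissue, by the edgeR quasi-likelihood test of gut minus liver or gut minus brain, for the following named miRNAs. Against liver, the difference of gut was -0.594 for miR-148, -0.767 for let-7f, -0.774 for let-7a, -0.819 for miR-21, -1.24 for miR-2188-3p and -1.30 for miR-92a on the log2 scale (adjusted p of 0.033, 0.00454, 0.00348, 0.00516, 0.0127 and 4.73e-05). With library size alone, the differences of miR-148, let-7f, let-7a and miR-21 from liver changed sign, to 0.30, 0.12, 0.11 and 0.07, and that of miR-2188-3p became -0.369 and did not pass (adjusted p = 0.317), while those of miR-92a and miR-499 became -0.40 and 2.29 and passed. Gut exceeded liver by 1.39 for miR-499 and by 1.88 for miR-135c (adjusted p of 0.0477 and 0.00684), and miR-499 did not pass with the size factors of DESeq2 (adjusted p = 0.0678).

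Against brain, the difference of gut was 1.84 for miR-148, 1.50 for miR-152, 3.90 for miR-34c, 4.25 for miR-499 and 1.14 for miR-135c (adjusted p of 6.59e-07, 2.37e-05, 0.0349, 2.13e-05 and 0.0349). It was -1.36 for miR-460-3p, -1.55 for miR-2188-3p, -0.894 for miR-1388-3p and -0.814 for miR-21 (adjusted p of 0.000966, 0.00379, 0.0095 and 0.00943). These differences from brain kept their sign under both other scalings.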

How the results depend on the processing

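The 3 libraries of each sex are pools, and male gut replicate 3 is the shallowest, so low miRNAs are limited by its floor of 3.31 normalized counts. The 7 calls were all made again with the likelihood ratio test, filterByExpr, library size alone, the 6 gut libraries alone and the 18 brain, gut and liver libraries. The DESeq2 test did not call miR-122 (adjusted p = 0.178) or miR-152 (adjusted p = 0.375). The cause of these differences was not tested. With the size factors of DESeq2 the median log2 fold change of all miRNAs was -0.116, and with library size alone it was 0.101.

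Calls higher in female gut numbered 4 to 8 under the alternatives that refit the model, and 13 with the fold threshold applied after the test. Calls higher in male gut numbered 2 with the likelihood ratio test, the gut libraries alone and the 18 libraries, 13 with the threshold applied after the test, and 1 to 2 without each library in turn. Of miRNAs past the test of no change with the higher level in male gut there were 60 with the size factors of DESeq2, with the DESeq2 test and with the gut libraries alone, 21 at an adjusted p of 0.01, and 23 to 38 without each library in turn, where 23 was without male gut replicate 1 and 24 without female gut replicate 3. The sex difference differed between gut and liver for 142 miRNAs with library size alone and 24 at an adjusted p of 0.01, and between gut and brain for 57 with the size factors of DESeq2, 48 with library size alone, 65 with the DESeq2 test and 14 at an adjusted p of 0.01. The share of the sum of squares between the sexes was 76.8% with a pseudocount of 10 and 72.8 to 78.7% without each library in turn. With a count of at least 10, a mean of 204 miRNAs was detected per gut library, against 226 with a count of at least 1. MiR-34b was called with the 18 libraries (adjusted p = 0.0309), miR-738 there too (0.0348), miR-735 with the likelihood ratio test (0.0377), and miR-430c with the likelihood ratio test, the gut libraries alone and the 18 libraries. None of the 26 miRNAs named by the rule for single miRNAs changed direction in gut under the 14 alternatives that refit the model.

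With the replicate number as a block, 6 miRNAs were called higher in female gut and 1 in male gut, the same 7, and 33 and 36 passed the test of no change. Deviations of libraries with the same number correlated at 0.273, 0.186 and 0.0183, for each female library the highest of its values. Those of libraries with different numbers correlated at -0.259 to 0.0186, the last between male gut replicate 3 and female gut replicate 1. Whether the numbers pair the libraries was not tested.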
